A study of Mus musculus with 12 samples.

Results

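The strongest and the weakest stimulus of a peptide titration in mice were compared across the transcripts of the responding T cells. The strongest was 2 µg of the peptide MCC and the weakest was 0.2 µg of the peptide 102S, with 3 arrays each, which is 6 of the 12 arrays of the series. The arrays were chosen by peptide and dose alone. All 22690 probe sets of the array were examined, and the 20393 with 1 gene symbol are described. The cells were 5CC7 T cells, which carry a transgenic T cell receptor (TCR) that MCC stimulates strongly and 102S weakly. These cells were given to B10.A recipients through the tail vein, and the peptide, in PBS, was given by the same route. Lymph nodes were pooled 48 h after the peptide and the 5CC7 cells were sorted by flow cytometry. The other 6 arrays hold cells from recipients of 0.2 µg of MCC or 2 µg of 102S, treated otherwise alike. No cells without peptide were analysed here, so every difference is between stimulated groups. The recipients kept their own lymphocytes, which only the sort removes. Whether replicates came from different animals is not in the labels. By Xist, given below, replicate 1 of each group was female and replicates 2 and 3 were male, so replicate 1 had another source. Each p-value here reflects the spread among arrays, which between replicates 2 and 3 may be technical.

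A T cell reads a peptide through its receptor, and both the affinity of the peptide and its amount set how strong the signal is. A strong signal brings a resting cell to grow, to divide and to exchange its surface receptors. The genes of lymph node recirculation and of survival on IL-7 are switched down, and inhibitory receptors that restrain the response are switched up. The 2 ends of the titration therefore bracket the range of signal in the study.

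RNA quality and cell source were read from the arrays first. For β-actin the 3′ probe set exceeded the 5′ probe set, a gap that widens in degraded RNA, by 0.63 ± 0.12 log2 on the MCC 2 µg arrays and by 1.33 ± 0.88 on the 102S 0.2 µg arrays (SD, n = 3). The ranges were 0.50 to 0.72 and 0.76 to 2.35, so this measure of RNA quality moved with the comparison, and its part in the results was not tested. Replicate 3 of 102S 0.2 µg had the highest difference, and the lowest correlation with its group was r = 0.956 across probe sets. Without that array 2062 genes were called, against 2195 with it. Replicate 1 of every group was female by Xist (11.72 to 12.27 log2, against 4.05 to 5.10 on the others), so each end held 1 female and 2 male arrays. T cell identity genes were high at both ends, with Cd3e at 10.08 ± 0.11 and 10.13 ± 0.11 log2 and Cd3d at 12.95 and 12.76 (MCC 2 µg and 102S 0.2 µg). Their mean log2 level was 10.68 to 10.83 with MCC 2 µg and 10.29 to 10.56 with 102S 0.2 µg. Of 8 tested, Cd5, Cd4, Cd28 and Cd3d were called higher (50%, against 12.8% of all genes) and Thy1 lower (12.5%, against 14.8%). The higher calls were 1 to 3 with 1 array left out. Of 14 B cell genes on the array 5 passed the intensity filter of 4.48 log2. Cd79a and Ms4a1 lay between 3.42 and 4.91 on the 12 arrays, while Ighm, the IgM heavy chain gene, lay between 10.41 and 11.53 and Cd74 between 5.54 and 7.31. The NK receptor gene Ncr1 lay at 3.42 or lower.

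Between the ends, 3186 of 12423 tested probe sets with 1 symbol differed (25.6%, limma, Benjamini-Hochberg adjusted p under 0.05). Higher with 2 µg of MCC were 1450 (11.7%) and lower were 1736 (14.0%). Counted by gene, with the brightest probe set standing for each, 1017 of 7945 genes were higher (12.8%) and 1178 were lower (14.8%), 2195 in all (27.6%). The median difference over all tested genes was -0.05 log2. The shares of all tested genes, 12.8% higher and 14.8% lower, are the background for every list below. The large differences leaned to the genes that were higher: 399 were called and at least 2-fold higher (5.02%), and 272 at least 2-fold lower (3.42%). At 4-fold the counts were 134 and 34, at 8-fold 45 and 8, and at 16-fold 16 and 3. In 3262 genes (41.1%) the 3 arrays of one end all lay above the 3 of the other. That share is the background for every remark on overlap below. For the 15 largest increases and 15 largest decreases the lack of overlap was a condition of their choice.

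The 15 largest increases among called genes without overlap were mostly genes of dividing cells and surface receptors of activated T cells. They were Mki67, Ccnb2, Birc5, Ube2c, Nusap1, Pclaf, Nrp1, Rrm2, Cd200, Cep55, Top2a, Ctla4, Ppic, Ccna2 and Cd83, with limma adjusted p-values between 1.44e-08 and 1.54e-06. The 15 largest decreases were Pdlim4, Socs3, Ccr9, Klrd1, Il7r, Igfbp4, Sgk1, Nr1d2, Dntt, Klf2, Cxcr4, Ncmap, Actn2, Dennd5a and Gbp7. All 30 kept their call in every alternative processing that tested them and with any 1 array left out. Where an end had a mean under the filter, the transcript was near the reading of an absent gene, and its levels are given without a fold, since the difference is a lower limit.

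**Figure D1:**
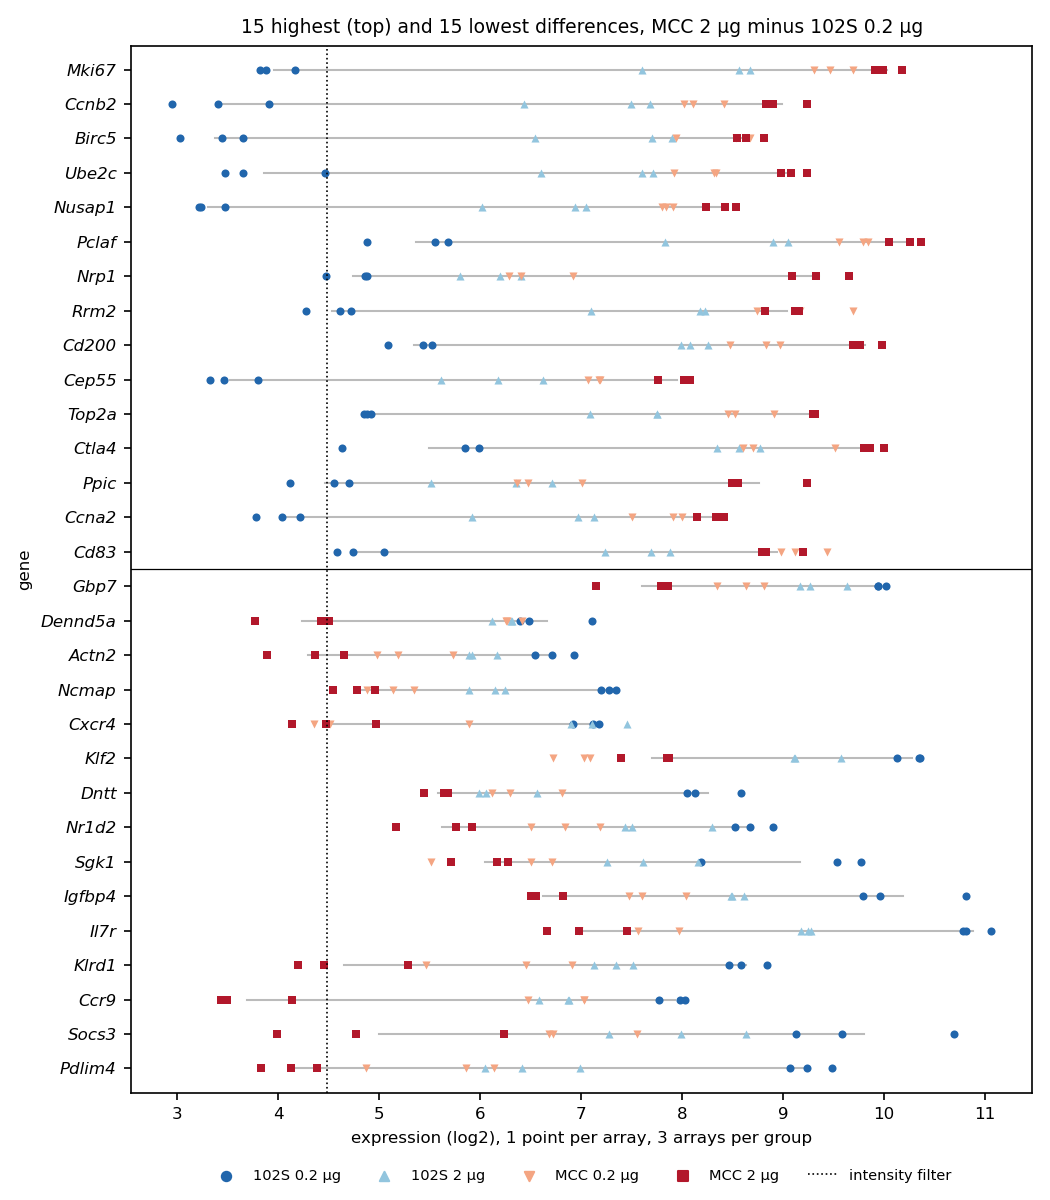
Expression (log2, x axis) of the 15 genes with the highest and the 15 with the lowest difference between MCC 2 µg and 102S 0.2 µg (y axis); each point is 1 array, 3 per group, the grey line joins the means of the ends and the dotted line marks the intensity filter of 4.48 log2. Mki67 lies between 9.91 and 10.18 with MCC 2 µg and between 3.82 and 4.17 with 102S 0.2 µg, and in Nrp1 and Ccr9 the middle groups lie nearer to 102S 0.2 µg than to MCC 2 µg.

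Genes of mitosis separated the ends more completely than any other list examined. Of 41 tested mitosis and spindle genes 40 were higher with 2 µg of MCC, 0 were lower and 1, the kinesin gene Kif23, did not pass (-0.06 ± 0.14 log2; named after its value was seen). Among all tested genes 12.8% were higher. The median difference of the list was 2.75 log2, and 39 of the 40 were at least 2-fold higher. In 26 of the 40 the mean with 102S 0.2 µg lay under the filter, so many members were tested only through the groups where they were high. With the stricter filter (6.11 log2) 19 were called higher.

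Mki67, which encodes the Ki-67 protein of cycling cells, stood at 9.91, 9.99 and 10.18 log2 with MCC 2 µg and at 3.82, 3.88 and 4.17 with 102S 0.2 µg. Ccnb2, a cyclin that drives entry into mitosis, stood at 8.83, 9.24 and 8.90 and at 3.40, 3.91 and 2.95. Birc5, which encodes survivin of the chromosomal passenger complex, stood at 8.54, 8.81 and 8.63 and at 3.44, 3.65 and 3.03. In all 3 genes the ends lay far apart relative to the spread within a group, and the weak end lay under the filter. Top2a, the topoisomerase that untangles chromosomes, was above the filter at both ends, at 9.30, 9.32 and 9.30 with MCC and 4.88, 4.92 and 4.85 with 102S. Its difference was 4.42 ± 0.18 log2 (limma adjusted p = 1.89e-08), a 21.4-fold higher level. Nusap1, Kif2c, Cep55, Ccna2 and Ube2c, genes of the spindle, of abscission, of a cyclin and of the ubiquitin ligase that ends mitosis, had the same arrangement, with 7.28 to 9.24 log2 at the strong end and 3.22 to 4.46 at the weak end.

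Promoters of this list are shown because its members moved together, with that of Il7r, the naive-cell gene of largest decrease, beside them. The sequences are the 250 bases before the annotated start, from RefSeq on the build GRCm38.p6, read 5′ to 3′ on the strand of the gene. Capitals mark CCAAT, the letters read by the factor NF-Y, and TTTGAA, the core of the cell cycle homology element, with their reverse complements ATTGG and TTCAAA. Mki67 lies on the minus strand at chr7:135716380-135716629, Ccnb2 on the minus strand at chr9:70421555-70421804 and Il7r on the minus strand at chr15:9529877-9530126.
Mki67: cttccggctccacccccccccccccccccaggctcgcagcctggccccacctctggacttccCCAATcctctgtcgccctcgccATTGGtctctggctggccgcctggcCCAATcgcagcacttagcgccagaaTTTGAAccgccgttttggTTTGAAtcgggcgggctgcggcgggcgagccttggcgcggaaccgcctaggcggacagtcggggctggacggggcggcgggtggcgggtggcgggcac
Ccnb2: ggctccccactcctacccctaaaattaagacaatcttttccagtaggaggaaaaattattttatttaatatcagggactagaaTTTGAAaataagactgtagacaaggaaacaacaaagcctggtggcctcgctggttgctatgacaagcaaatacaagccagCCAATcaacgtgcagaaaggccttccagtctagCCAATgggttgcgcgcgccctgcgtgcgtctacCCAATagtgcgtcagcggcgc
Il7r: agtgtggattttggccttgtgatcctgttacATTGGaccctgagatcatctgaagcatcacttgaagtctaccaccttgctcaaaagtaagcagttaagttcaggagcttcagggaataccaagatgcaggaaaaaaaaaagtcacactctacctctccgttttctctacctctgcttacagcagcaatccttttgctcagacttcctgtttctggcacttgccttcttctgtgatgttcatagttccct
The Mki67 window holds CCAAT at 188 and 141 bases before the start, ATTGG at 166, and TTTGAA at 116 and 98. The Ccnb2 window holds TTTGAA at 167 and CCAAT at 87, 54 and 21. The Il7r window holds 1 ATTGG, at 219, and no TTTGAA.

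Over the whole list, with both strands searched, 16 of 40 mitosis windows held TTTGAA and 28 held CCAAT. Over the windows of all tested genes the shares were 10.3% and 35.1%, and among all promoters listed 16.0% and 33.8%. A window is 1 annotated start, and 36 of the 41 genes had an entry. The letters TTTCCCGC or TTTGGCGC, forms of the E2F site, stood in 5 of 34 windows of DNA replication genes (14.7%), against 2.65% for all tested genes and 1.3% for all promoters listed. GTAAACA, the core read by FOXO and other forkhead factors, stood in 2 of 31 windows of naive-cell genes (6.45%), against 2.13% and 3.17%. Other lists held these letters too: the E2F forms stood in 3 of 24 ribosome biogenesis windows (12.5%) and in 0 of 40 mitosis windows, CCAAT in 19 of 34 DNA replication windows (55.9%) and GTAAACA in 2 of 40 mitosis windows. Matches of CCAAT and TTTGAA can share an end base. These are matches of letters, given without a test.

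DNA replication and nucleotide synthesis genes were higher in 25 of 34 tested and lower in 1, with a median difference of 1.27 log2. Pclaf, a PCNA-binding factor, stood at 10.05, 10.37 and 10.26 log2 at the strong end and 5.68, 5.55 and 4.88 at the weak end, a difference of 4.86 ± 0.28 log2. Rrm2, the regulated subunit of ribonucleotide reductase, stood at 8.82, 9.16 and 9.12 and at 4.61, 4.27 and 4.72, which is 22.7-fold. Both genes had no overlap between the ends. Uhrf1, which guides maintenance DNA methylation to new strands, was higher by 3.15 ± 0.26 log2, and the DNA ligase Lig1 by 1.74 ± 0.13 (adjusted p = 1.96e-06). The 1 lower member, named after its value was seen, was the licensing factor Cdt1 (-0.90 ± 0.21), whose protein is removed as replication begins. The helicase subunits differed among themselves: Mcm5 (1.70 ± 0.23), Mcm6 (1.40 ± 0.20) and Mcm3 (1.04 ± 0.17) were higher, while Mcm2 (0.01 ± 0.18) did not pass (the 4 chosen after their values were seen).

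The regulators upstream of replication moved less. Of 18 G1 cyclins, kinases, inhibitors and E2F genes, 4 were higher (22.2%, against 12.8% of all genes) and 0 lower, with a median of 0.23 log2. E2f8, a repressor of the E2F family that is itself made in S phase, stood at 5.79, 6.62 and 6.06 log2 against 3.62, 3.78 and 3.67. The kinase inhibitor Cdkn2c was higher by 1.31 ± 0.20 and E2f1 by 0.75 ± 0.19. Cdk4 was higher by 0.49 ± 0.14, which lost its call in 3 alternatives and 3 omissions (adjusted p up to 0.113). The list held 8 higher genes with the replicate number as a block.

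Activation genes were higher in 12 of 21 tested and lower in 0, with a median of 0.82 log2. Cd83, a surface glycoprotein of activated lymphocytes, stood at 8.79, 9.20 and 8.83 log2 with MCC 2 µg and 4.58, 5.05 and 4.74 with 102S 0.2 µg, a difference of 4.15 ± 0.20. Irf4, whose level in T cells follows receptor signal, stood at 8.36, 8.55 and 8.38 and at 5.88, 6.07 and 5.29. Cd44, the hyaluronan receptor of antigen-experienced cells, was higher by 2.56 ± 0.15 log2 (adjusted p = 2.85e-07). These 3 genes did not overlap between the ends. The receptor-induced transcription factors Nr4a1 (1.04 ± 0.20) and Egr2 (0.66 ± 0.12) were higher by less. At 48 h, Egr1, Egr3, Nr4a3 and Rel did not pass, with differences between -0.27 and 0.43 log2 (named after their values were seen).

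Several activation genes did not separate the ends. Myc, the growth regulator, stood at 7.58, 7.55 and 7.25 log2 with MCC 2 µg and 8.33, 8.60 and 7.21 with 102S 0.2 µg, a difference of -0.59 (95% interval -1.31 to 0.14). Myc was called lower without that array and with the β-actin covariate. Il2ra, the high-affinity chain of the IL-2 receptor, stood at 5.14, 4.55 and 4.45 and at 4.32, 4.55 and 4.76, with an interval of -0.29 to 0.64. Its partner Il2rb, the β chain, was higher at the strong end, at 8.08, 8.15 and 7.94 against 5.42, 4.97 and 5.11 (2.89 ± 0.19 log2).

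Inhibitory receptors and their ligands were higher in 6 of 10 tested and lower in 1, with a median of 1.28 log2. Cd200, the ligand of an inhibitory myeloid receptor, stood at 9.69, 9.98 and 9.76 log2 against 5.43, 5.52 and 5.09, which is 22.0-fold. Ctla4, which competes with CD28 for its ligands, stood at 9.88 ± 0.10 log2 (SD, n = 3) against 5.85, 5.99 and 4.63, a difference of 4.40 ± 0.32. Pdcd1, which encodes PD-1, stood at 8.41, 8.74 and 8.38 against 5.03, 5.08 and 5.09, a difference of 3.45 ± 0.14. All 3 lay without overlap between the ends. Cd160, a receptor for HVEM, was higher by 2.45 ± 0.30. Lag3, which binds MHC class II, was higher by 0.90 ± 0.24, a call lost without 102S 0.2 µg replicate 1 or MCC 2 µg replicate 2 (highest adjusted p = 0.0602). The 1 lower member, named after its value was seen, was Vsir, which encodes VISTA, an inhibitory receptor of resting T cells (-1.28 ± 0.27).

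Costimulatory receptors and ligands were higher in 12 of 17 tested and lower in 1, with a median of 0.93 log2. Tnfsf11, which encodes the ligand RANKL, stood at 8.60, 8.72 and 8.46 log2 against 5.66, 5.98 and 4.73, a difference of 3.13 ± 0.26. Tnfrsf4, which encodes OX40, was higher by 2.27 ± 0.19, Slamf6 by 1.84 ± 0.11 and Icos by 1.58 ± 0.12. Cd28 itself was higher by 0.57 ± 0.16, and did not pass without MCC 2 µg replicate 1 or 3 or 102S 0.2 µg replicate 3 (adjusted p up to 0.0665). Tnfrsf25, the receptor for TL1A, was the 1 lower member, at 5.72 ± 0.47 against 7.93 ± 0.11 log2 (named after its value was seen).

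Genes of helper subsets were examined next, with the caution that several stand in the activation or inhibitory lists as well. Of 10 follicular helper genes 8 were higher and 1, Il6ra, was lower, with a median of 1.61 log2. Cxcr5, the receptor for entry into B cell follicles, stood at 7.75, 7.75 and 7.17 log2 with MCC 2 µg and at 3.46, 4.05 and 3.62 with 102S 0.2 µg, so of the ends only the strong one lay above the filter. Bcl6, the repressor that directs follicular helper cells, was higher by 0.92 ± 0.14 (adjusted p = 0.000422). Bcl6 lay between 7.67 and 7.90 against 6.62 and 7.01. Il21 and Il4, cytokines of that subset, lay at or below 3.21 log2 on all 12 arrays.

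Of 11 tested genes shared with regulatory T cells 8 were higher and 0 lower, with a median of 2.02 log2. Nrp1, the co-receptor for semaphorins and VEGF, stood at 9.09, 9.65 and 9.33 log2 against 4.88, 4.47 and 4.86, which is 24.5-fold. Capg, an actin-capping protein, stood at 10.13, 9.96 and 9.95 against 6.81, 6.69 and 6.53, a difference of 3.33 ± 0.12. Izumo1r, which encodes folate receptor 4, was higher by 2.08 ± 0.17. Foxp3, which defines regulatory T cells, lay between 3.19 and 3.75 log2 at both ends, below the filter. Of 15 lineage regulators 6 were higher (40%, against 12.8% of all genes). Lower were 2, Id2 and Zeb1 (1 in 9 of the settings), which is 13.3%, near the 14.8% of all genes. The calcium-responsive factor Nfatc1 was higher by 1.52 ± 0.13 and the aryl hydrocarbon receptor gene Ahr stood at 5.58, 6.48 and 5.47 against 4.20, 4.07 and 4.02. Gata3, the Th2 regulator, did not pass, with an interval of -0.20 to 0.39 log2, and Tbx21, the Th1 regulator, lay between 2.81 and 3.04 at both ends.

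Cytokine transcripts were few. Of 22 cytokine and chemokine genes listed 9 passed the intensity filter, and 1 was higher and 1 lower. Each is 11.1% of those tested, near the 12.8% and 14.8% of all genes. Lta, which encodes lymphotoxin-α, was higher by 0.51 ± 0.15, a call lost in 2 alternatives and 4 omissions (highest adjusted p = 0.199). Il2 was under the filter over the 12 arrays together, yet stood at 5.93, 6.39 and 5.40 log2 with MCC 2 µg and 3.13, 3.27 and 3.57 with 102S 0.2 µg. In the fit without the filter it was called (adjusted p = 5.97e-06). Prdm1, a transcriptional repressor that promotes terminal differentiation, lay the other way, at 3.24, 3.17 and 3.56 against 5.44, 5.45 and 4.76 (adjusted p = 2.84e-05 in that fit). Ifng, at 3.01 to 3.56 log2, was not called there (adjusted p = 0.156).

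Of 22 tested genes that mark naive or quiescent cells 10 were lower and 0 higher, with a median of -0.38 log2, where 14.8% of all tested genes were lower. Il7r, the IL-7 receptor chain that keeps resting T cells alive, stood at 7.45, 6.66 and 6.98 log2 with MCC 2 µg and 10.78, 11.06 and 10.81 with 102S 0.2 µg, a difference of -3.85 ± 0.23. Klf2, the factor that maintains quiescence and homing genes, stood at 7.85, 7.87 and 7.39 against 10.36, 10.35 and 10.13, a difference of -2.58 ± 0.17. Neither gene overlapped between the ends, which their place among the 15 lowest required. Igfbp4, a growth factor binding protein of naive T cells, differed by -3.56 ± 0.23 and the chromatin organiser Satb1 by -1.21 ± 0.11. The members that did not pass included Lef1, Foxp1, Bach2 and Ets1, transcription factors of resting T cells, with differences between -0.37 and -0.02 log2 (named after their values were seen). The lower genes of this list were 9 to 16 over the settings, with 16 under the β-actin covariate. With the replicate block 12 were lower and 2 higher.

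The receptors that place a T cell in tissue differed in both directions. Of 10 tested genes of the chemokine and egress list 4 were higher (40%, against 12.8% of all genes) and 3 lower (30%, against 14.8%). Among the higher members Ebi3 encodes a cytokine subunit and not such a receptor. Ccr9, the gut homing receptor, stood at 4.14, 3.49 and 3.43 log2 with MCC 2 µg and at 8.03, 7.77 and 7.98 with 102S 0.2 µg. Cxcr4, the receptor for CXCL12, stood at 4.97, 4.47 and 4.14 against 7.12, 7.18 and 6.92. S1pr1, the sphingosine phosphate receptor for leaving lymph nodes, stood at 7.44, 7.15 and 6.92 against 9.35, 9.50 and 8.24 (-1.86 ± 0.32). Ccr6, the receptor for CCL20, went the other way with Cxcr5, at 6.85, 7.74 and 7.14 against 4.47, 4.49 and 4.43. Ccr7, which brings T cells into lymph nodes, was high at both ends, with means of 10.81 and 10.51 log2, and did not pass (interval -0.24 to 0.84).

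Adhesion genes were lower in 6 of 16 tested and higher in 3 (6 higher with the replicate block). These are 37.5% and 18.8%, against 14.8% and 12.8% of all genes. Icam1 (-2.05 ± 0.25) and Icam2 (-1.75 ± 0.21), ligands of the integrin LFA-1, were lower. Selplg, the ligand of P-selectin, was lower by less (-0.83 ± 0.09). Itgal, the α chain of LFA-1, was higher by 1.58 ± 0.30 (named after its value was seen).

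Among 16 cytokine receptor chains 4 were higher (25%, against 12.8% of all genes) and 6 lower (37.5%, against 14.8%). The lower chains were 3 without 102S 0.2 µg replicate 1, and the higher ones 2 in the male arrays alone. Among 15 signal transducers and SOCS genes 1 was higher (6.67%) and 4 lower (26.7%). Socs3, a feedback inhibitor of cytokine signalling, stood at 4.77, 6.24 and 3.99 log2 with MCC 2 µg and 9.13, 10.69 and 9.58 with 102S 0.2 µg. Its difference of -4.80 ± 0.55 was large against a spread of 1.14 and 0.80 within the groups (SD, n = 3). The ends did not overlap, which the place of Socs3 among the 15 lowest required. Pim1, a kinase gene induced by STAT signals, differed by -1.16 ± 0.18, Bcl3 by -1.36 ± 0.28 and Stat6 by -0.64 ± 0.12. Il6st, the shared chain of the IL-6 receptor family, was higher by 0.72 ± 0.11 and Il12rb1 by 0.77 ± 0.17. The call of Il12rb1 was lost in the male arrays alone (adjusted p = 0.0553).

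Cytotoxic and NK receptor genes were lower in 6 of 10 tested (3 with the stricter filter) and higher in 1, with a median of -0.98 log2. Klrd1, which encodes the CD94 receptor chain, stood at 5.29, 4.45 and 4.20 log2 against 8.58, 8.46 and 8.84, a difference of -3.98 ± 0.34. The perforin gene Prf1 differed by -1.37 ± 0.22 and the protease gene Ctsw by -1.18 ± 0.17. Fasl, the death ligand, stood at 4.87, 4.36 and 4.11 against 6.23, 5.90 and 5.90. Markers of CD8 and NK cells moved beside this list. Of 5 tested 3 were lower (Klrd1, Gzma and Prf1), and the summed linear level of the list was 316.3 to 400 with MCC 2 µg and 876.4 to 962.5 with 102S 0.2 µg. The defining genes Klrk1 and Ncr1 lay at or below 3.42 log2 on all arrays, and Cd8a (-0.42 ± 0.25) and Cd8b1 (-0.46 ± 0.21) did not pass. With the replicate block all 5 tested markers, these genes included, were called lower. The summed B cell markers were 1936 to 2202 against 2921 to 3201, a sum in which the bright gene Ighm weighs most. Their mean log2 levels overlapped, at 4.62 to 4.76 against 4.48 to 5.13. Ighm was lower (-0.72 ± 0.09), though 0 of its 2 other tested probe sets had the same call. Cd74 was higher (1.39 ± 0.22). H2-Eb1, Cd79b and Cd22 did not pass (named after their values were seen). The median over the 5 tested B cell genes was 0.76 log2, opposite in direction to the sum. With the β-actin covariate, or without 102S 0.2 µg replicate 3, 3 of these genes were called higher, against 1 in the main fit. None of 5 myeloid markers was called by limma (adjusted p 0.148 for Lyz2), and their sums overlapped, at 520 to 566.1 against 540 to 711.5. The part of other cells in these results was not tested, and in sorted bulk RNA fewer cells of a type and less RNA per cell cannot be told apart.

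For the receptor machinery itself the median difference was small, at 0.09 log2. Of 18 genes of the TCR complex and its proximal kinases 4 were higher (22.2%, against 12.8% of all genes) and 1 lower (5.56%, against 14.8%). The higher calls were Zap70 (0.98 ± 0.31), Lcp2 (0.82 ± 0.25), Cd4 (0.61 ± 0.18) and Cd3d (0.19 ± 0.06). No gene of the list was called higher without 102S 0.2 µg replicate 3 or without MCC 2 µg replicate 1 or 2, 1 was without MCC 2 µg replicate 3, and 2 were without 102S 2 µg replicate 2 or 102S 0.2 µg replicate 1. With the β-actin covariate 6 of the list were lower. The Tec family kinase gene Tec was lower (-1.69 ± 0.14), at 5.73 to 6.03 log2 against 7.54 to 7.65. Cd3e did not pass (-0.05 ± 0.09).

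Negative regulators split by gene. Of 17 brakes of receptor signalling 6 were higher and 6 lower (35.3% each, against 12.8% and 14.8% of all genes). Cd5, a surface inhibitor whose level follows receptor signal, stood at 10.58, 10.56 and 10.43 log2 against 9.16, 9.12 and 8.80. Its ends had no overlap, as held for 41.1% of all tested genes. Dgkz, the kinase that removes diacylglycerol, was higher by 1.06 ± 0.08, while its relative Dgka was lower (-0.61 ± 0.14; named after its value was seen). The adaptor Sla was higher by 1.20 ± 0.20 and Cd6 by 1.15 ± 0.21. The lower genes of this list were 2 without MCC 2 µg replicate 3 and 3 without 102S 0.2 µg replicate 2.

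Feedback genes of the ERK and calcineurin pathways were higher in 5 of 9 tested and lower in 0, with a median of 0.51 log2. Dusp6, the phosphatase of ERK, stood at 10.02, 9.99 and 10.10 log2 against 7.89, 8.23 and 7.74, a difference of 2.08 ± 0.17. Spry1, an inhibitor of Ras signalling, stood at 6.13, 6.39 and 5.86 against 4.13, 4.27 and 4.12. Neither overlapped between the ends, as held for 41.1% of all tested genes. Dusp1, a phosphatase of p38 and JNK, was higher by 1.28 ± 0.24. The count fell to 3 in 6 settings, among them the 6 arrays of the comparison alone and the omission of MCC 2 µg replicate 1 or 2.

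Genes of cell death and survival were higher in 6 of 14 tested (42.9%, against 12.8% of all genes) and lower in 1 (7.14%, against 14.8%). Bcl2l11, which encodes the death-promoting protein BIM, stood at 9.85, 10.16 and 10.06 log2 against 8.55, 8.63 and 8.79, a difference of 1.37 ± 0.14. Fas, the death receptor, was higher by 0.73 ± 0.14 while its ligand Fasl was the lower member. The p53 target Trp53inp1 was higher by 0.92 ± 0.16. The other higher members were the survival gene Bcl2l1, Bad and Bak1, while the survival gene Bcl2 did not pass (0.13 ± 0.20). Bcl2l1, Bad, Bak1 and Bcl2 were named after their values were seen.

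Of 16 glycolysis and pentose phosphate genes 6 were higher (37.5%, against 12.8% of all genes) and 2 lower (12.5%, against 14.8%). The higher ones were led by Tpi1 (0.97 ± 0.15), Pgam1 (0.69 ± 0.12) and Pgk1 (0.68 ± 0.09). The lower ones were Aldoa (-0.66 ± 0.13) and the glucose transporter gene Slc2a1 (-0.75 ± 0.16). Of 36 respiratory chain and ATP synthase genes 9 were higher (25%) and 1 lower (2.78%), with a median of 0.23 log2. The complex I subunit genes Ndufs8 (0.87 ± 0.13) and Ndufv2 (0.78 ± 0.11) led that list. Of 2 other tested probe sets of Ndufv2, 0 had the same call. Its count of higher genes was 16 with the replicate block, 23 with the β-actin covariate and 5 without 102S 0.2 µg replicate 2. Of 16 TCA cycle genes 4 were higher (25%) and 0 lower, with differences under 0.5 log2. The TCA cycle count was 2 without MCC 2 µg replicate 2 and 7 with the β-actin covariate.

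Of 19 amino acid genes 4 were higher and 4 lower (21.1% each, against 12.8% and 14.8% of all genes). The higher ones were 2 without 102S 0.2 µg replicate 2 and in the male arrays alone. Psat1, an enzyme of serine synthesis, was higher by 1.60 ± 0.15, at 8.76, 9.11 and 8.92 log2 against 7.42, 7.54 and 7.02. Mthfd1, an enzyme of folate one-carbon metabolism, was lower, at 7.41, 7.53 and 7.29 against 8.12 on each of the 3 weak arrays (-0.71 ± 0.11). The amino acid transporters Slc7a5 (-0.74 ± 0.16) and Slc38a2 (-0.80 ± 0.16) were lower too, Slc7a5 without a call in the male arrays alone (adjusted p = 0.0589). In lipid synthesis 3 of 21 genes were higher (14.3%, near the 12.8% of all genes) and 5 lower (23.8%, against 14.8%). The lower genes were 2 without 102S 0.2 µg replicate 1 or MCC 2 µg replicate 3, in the male arrays alone and in the 6 arrays alone, and 3 without 102S 0.2 µg replicate 2. The desaturase gene Scd2 was higher by 1.82 ± 0.15 and the fatty acid binding protein gene Fabp5 by 1.49 ± 0.18. The squalene epoxidase gene Sqle (-1.19 ± 0.19) and the fatty acid synthase gene Fasn (-0.71 ± 0.11) were lower.

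Of 26 tested ribosome biogenesis genes 12 were lower at the strong end, 0 were higher and 14 did not pass, with a median of -0.49 log2, where 14.8% of all tested genes were lower. Gnl3, which encodes nucleostemin, stood at 7.66, 7.57 and 7.16 log2 with MCC 2 µg and 8.74, 8.75 and 8.91 with 102S 0.2 µg, a difference of -1.34 ± 0.15. Nop56, a core protein of the box C/D particles that methylate ribosomal RNA, stood at 8.20, 8.21 and 8.09 against 9.32, 9.41 and 9.55, a difference of -1.26 ± 0.14. Neither gene overlapped between the ends, as held for 41.1% of all tested genes. Wdr43 (-1.08 ± 0.14) and Mybbp1a (-0.97 ± 0.12), both nucleolar, were lower as well. The count was 19 with the β-actin covariate and 8 to 15 in the other settings, with 8 without 102S 0.2 µg replicate 1 or 2.

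The machinery downstream of ribosome assembly showed smaller differences. Of 30 cytosolic ribosomal protein genes 2 were higher (6.67%, against 12.8% of all genes) and 7 lower (23.3%, against 14.8%), mostly by under 0.3 log2. The lower ones were 1 without the intensity trend, 2 in the 6 arrays alone and 3 in the male arrays alone, and the higher ones were 0 in each of these. Rps25 was the exception (-1.01 ± 0.18). Rps29 (-0.18 ± 0.04) lost its call in 4 alternatives, among them quantile normalization (adjusted p up to 0.204). Of 29 mitochondrial ribosomal protein genes 5 were higher (17.2%, against 12.8% of all genes), led by Mrpl27 (1.15 ± 0.18), and 2 lower, Mrps28 (-1.07 ± 0.24) and Mrps18b (-0.97 ± 0.18). The higher ones were 1 without MCC 2 µg replicate 2, 2 without MCC 2 µg replicate 1, 3 without 102S 0.2 µg replicate 1 or 2, and 9 with the β-actin covariate. Of 30 proteasome genes 7 were higher (23.3%, against 12.8% of all genes) and 0 lower, with a median of 0.27 log2 and Psma1 highest (0.71 ± 0.12). Proteasome calls ranged from 2 to 11 over the settings. They were 2 without MCC 2 µg replicate 1, and 3 without MCC 2 µg replicate 2 or 102S 2 µg replicate 3. They were 4 without 102S 2 µg replicate 2, 102S 0.2 µg replicate 1 or 2 or MCC 0.2 µg replicate 2. Of 25 chaperone and unfolded protein response genes 5 were lower (20%, against 14.8% of all genes) and 0 higher, among them the endoplasmic reticulum co-chaperone gene Dnajb9 (-0.77 ± 0.15) and the factor Xbp1 (-0.55 ± 0.12), which did not pass in the male arrays alone (adjusted p = 0.0613). That count was 3 without 102S 0.2 µg replicate 1 or 2 or MCC 2 µg replicate 1 or 3, and 11 with the β-actin covariate.

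Interferon-stimulated genes were higher in 5 of 26 tested (19.2%, against 12.8% of all genes) and lower in 7 (26.9%, against 14.8%). The lower genes were 3 without 102S 0.2 µg replicate 1 or without MCC 2 µg replicate 3. Ifi27l2a was higher by 1.68 ± 0.16 log2, at 13.14, 13.29 and 13.03 against 11.46, 11.14 and 11.83, and the RNA sensor gene Ifih1 by 1.00 ± 0.14. The interferon-γ inducible GTPase genes Igtp (-0.98 ± 0.10), Ifi47 (-0.64 ± 0.10) and, outside the list, Gbp7 (-2.36 ± 0.19) were lower. Among 11 clock genes 3 were lower (27.3%, against 14.8% of all genes) and 1 higher (9.09%, against 12.8%). Nr1d2, a repressor of the clock loop, stood at 5.76, 5.92 and 5.17 log2 against 8.90, 8.67 and 8.52, and Cry1 differed by -1.24 ± 0.14. All groups were collected at 48 h after the peptide. The hour of the day is not stated in the labels.

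Actin regulators were higher in 9 of 24 tested (14 with the replicate block) and lower in 3. These are 37.5% and 12.5%, against 12.8% and 14.8% of all genes. Tiam1, which activates the GTPase Rac, stood at 8.49, 8.37 and 8.32 log2 against 4.93, 4.81 and 4.70, a difference of 3.58 ± 0.15. Synpo, which encodes the actin-binding protein synaptopodin, stood at 7.08, 7.28 and 6.57 against 3.52, 3.76 and 3.61. Cnn3, a calponin that binds actin, was lower (-1.87 ± 0.16). Of 17 chromatin regulators 8 were higher and 1, Satb1, was lower. Hmgb2, a chromatin protein of cycling cells, was higher by 2.93 ± 0.28 and Ezh2, the methyltransferase of Polycomb, by 1.72 ± 0.14.

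**Figure D2:**
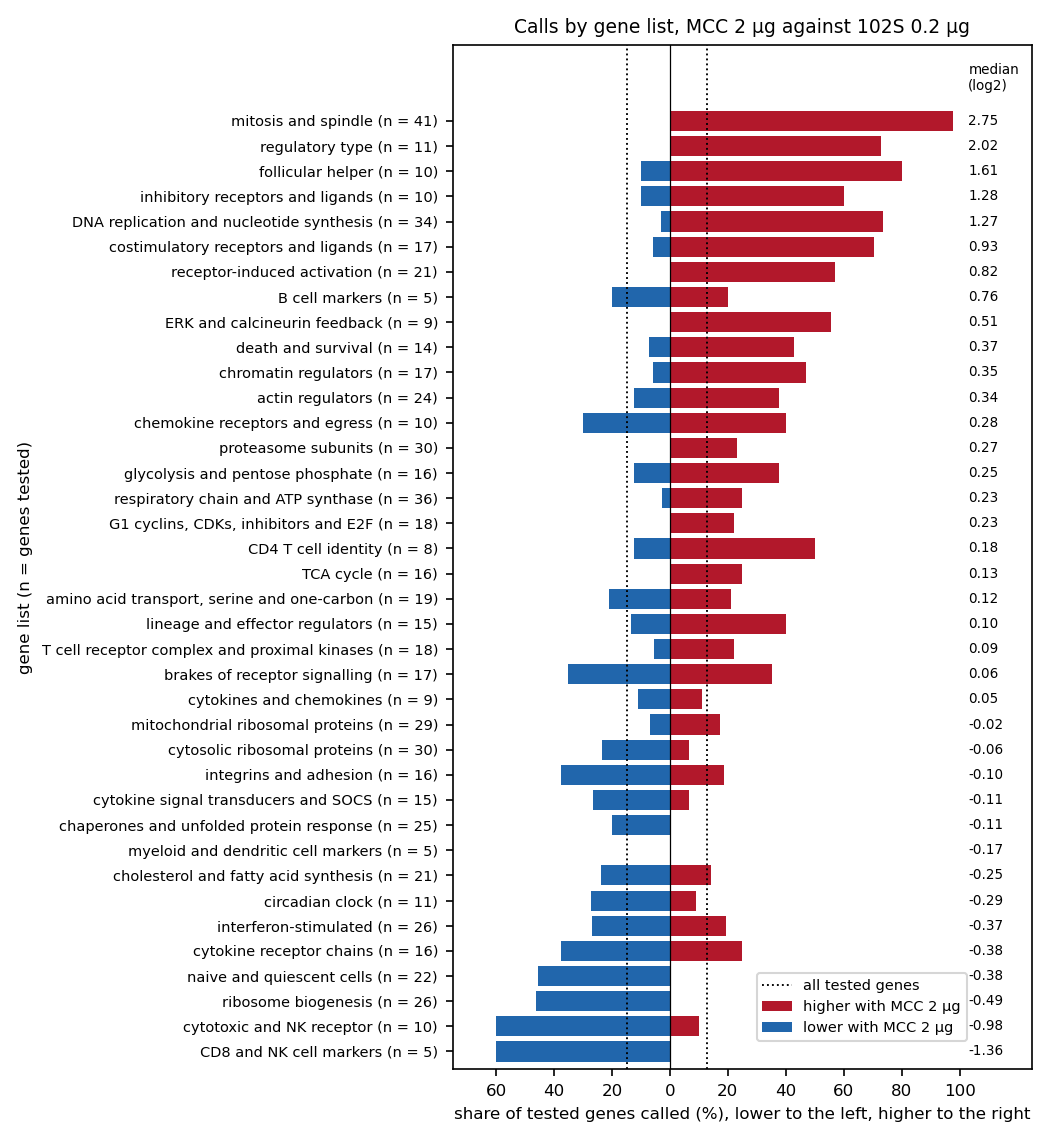
Share of the tested genes of each list called higher (right) or lower (left) with MCC 2 µg against 102S 0.2 µg (x axis, percent), by list (y axis, with the number of genes tested; lists of at least 5), and the median difference in log2 at the right. The dotted lines mark all tested genes, 12.8% higher and 14.8% lower; mitosis lies at 97.6% higher, and ribosome biogenesis at 46.2% lower with no gene higher.

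Most tested genes were not called between the ends. Of the 5750 genes without a call, 5295 had a 95% interval of the difference within 1 log2 of 0. For these, differences beyond 2-fold lay outside the interval, although a difference smaller than that may still be present.

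The other 6 arrays gave a second comparison of the peptides, from arrays that the comparison of the ends did not use. The stronger peptide at the lower dose (MCC 0.2 µg) was set against the weaker peptide at the higher dose (102S 2 µg). Peptide strength and dose are opposed in this pair, whereas between the ends they go together, so it is a different contrast. The pairs share no array, but they share the estimate of spread and the replicate numbers. In this middle pair 235 of 7945 genes were called (2.96%), 147 higher with MCC (1.85%) and 88 lower (1.11%). The count moved between 70 and 770 over the settings tried, and it was 747 with the replicate block.

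Genes called between the ends mostly kept their sign in the middle pair at a smaller size. Of the 1017 genes higher with MCC 2 µg, 763 had a positive difference in the middle pair and 129 were called higher, which is 12.7% of the former and 87.8% of the middle calls. Of the 1178 lower genes, 977 had a negative difference and 73 were called lower, which is 6.2% and 83% of each list. The median differences shrank from 0.83 to 0.16 log2 for the higher genes and from -0.70 to -0.24 for the lower. Among the 45 genes that were higher by over 3 log2 between the ends the middle median was 1.04 log2, and 22 were called higher. Across all tested genes the differences of the pairs correlated with r = 0.55 and rho = 0.40. Genes do not count as replicates, so both values only describe.

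**Figure D3:**
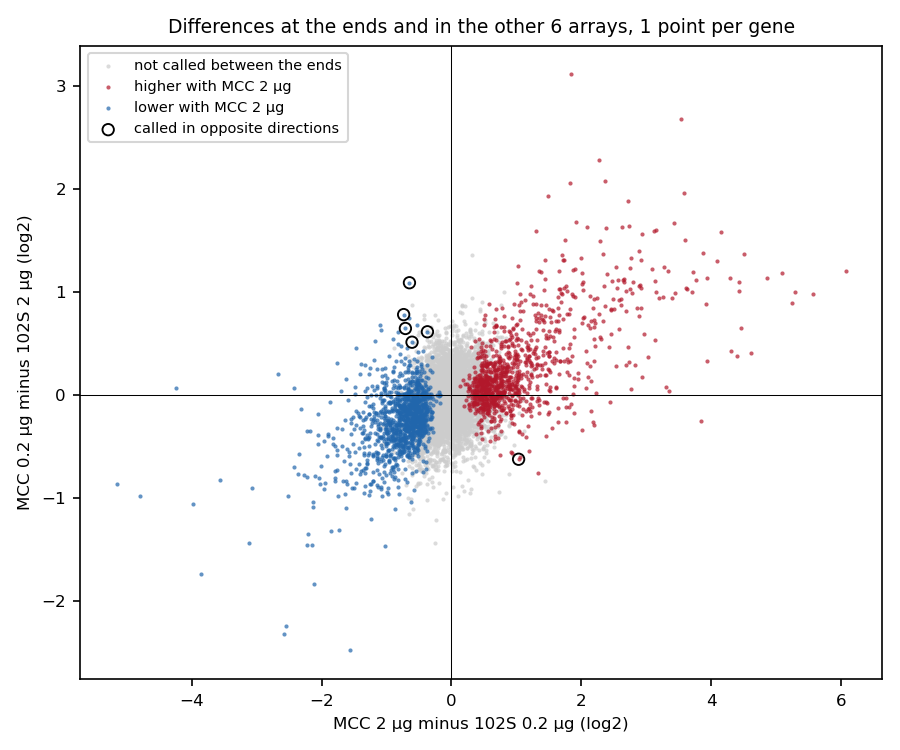
Difference MCC 2 µg minus 102S 0.2 µg (x axis, log2) against MCC 0.2 µg minus 102S 2 µg (y axis, log2), 1 point per tested gene, coloured by the call between the ends. Points spread from lower left to upper right (r = 0.55 across genes), and the 6 circled genes were called in opposite directions.

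In most lists fewer genes were called in the middle pair than between the ends. Of all tested genes 1.85% were higher there and 1.11% lower. DNA replication genes were higher with MCC 0.2 µg in 16 of 34 and mitosis genes in 19 of 41, with medians of 0.77 and 0.94 log2. Activation genes were higher in 9 of 21, with Tnfrsf4 at 2.28 log2 in the middle pair against 2.27 between the ends. Inhibitory receptors were higher in 1 of 10, Pdcd1 (0.99 log2). Follicular helper genes were higher in 2 of 10 and their median was -0.13 log2. Ribosome biogenesis genes were called in 0 of 26, and their median was 0.19 log2, opposite in sign to the ends.

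The place of the middle groups between the ends differed from gene to gene. It is given as the percentage of the way from the mean of 102S 0.2 µg to that of MCC 2 µg, for genes that the ends chose, and so without a test. Over the 399 genes at least 2-fold higher the medians were 78.4% for MCC 0.2 µg and 49.2% for 102S 2 µg. Over the 272 genes at least 2-fold lower they were 59.2% and 30.6%. The 20 DNA replication genes among the 399 had a median of 106% with MCC 0.2 µg, past the level of MCC 2 µg, and of 46.4% with 102S 2 µg. The 39 mitosis genes among them stood at 84.8% and 50.8%. Where an end lay under the filter, as in most mitosis genes and in Ccr9 and Dennd5a, the percentage is measured from a background reading and is only approximate.

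Some genes stood apart from these medians. Nrp1 was at 39% with MCC 0.2 µg and 30.2% with 102S 2 µg, Ccr9 at 25.6% and 27.1% and Dennd5a, an exchange factor for Rab GTPases, at 14.2% and 16.9%. In these 3 genes the middle groups were near each other and nearer to the weak end, and MCC 2 µg stood apart. Cxcr5 had both middle groups near the strong end, at 6.51 to 7.24 log2 with MCC 0.2 µg and 6.85 to 7.49 with 102S 2 µg. Cxcr4 followed the peptide, at 84.7% with MCC 0.2 µg and -3.15% with 102S 2 µg. Klf2 was lower with MCC 0.2 µg than with MCC 2 µg (129%).

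**Figure D4:**
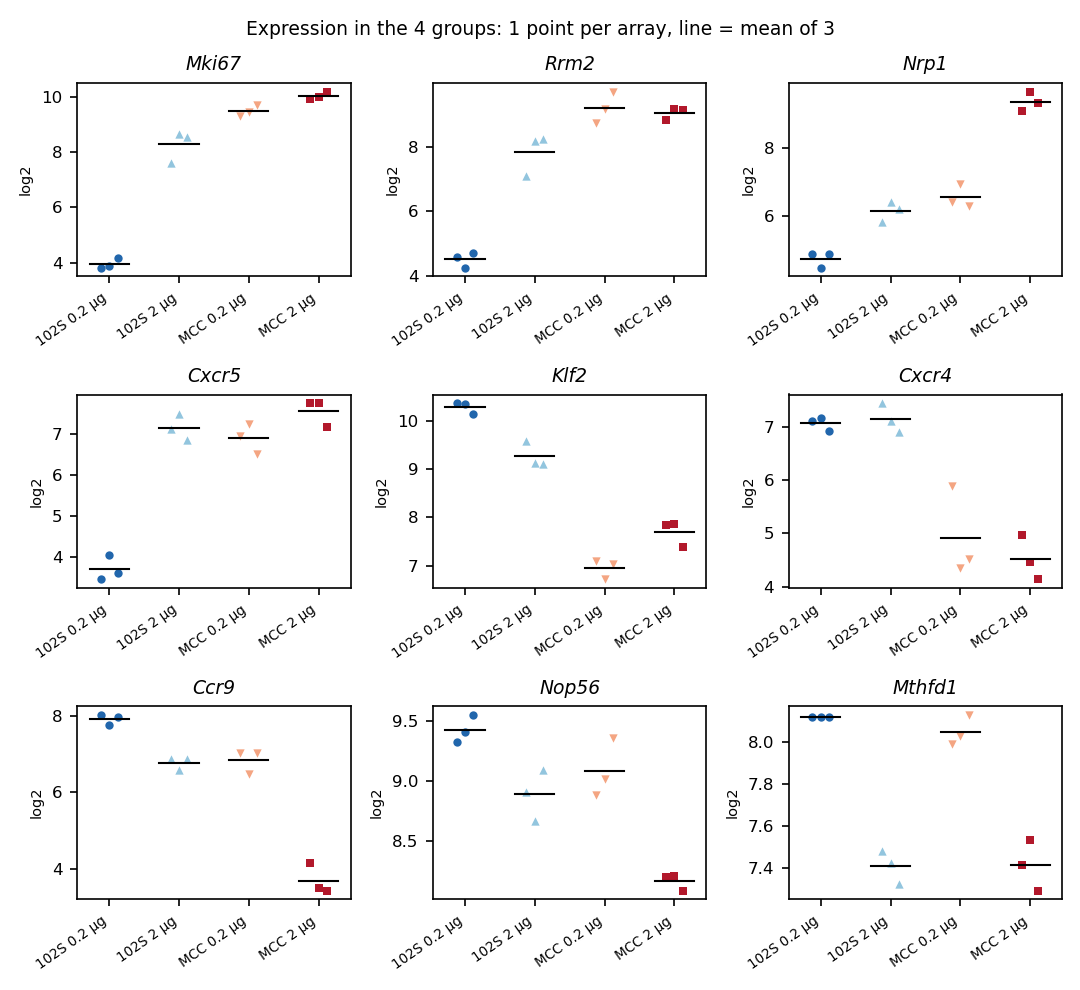
Expression (log2, y axis) of 9 genes in the 4 groups (x axis), 1 point per array with the mean of 3 as a line. Nrp1 and Ccr9 differ mainly at MCC 2 µg, Cxcr5 is low with 102S 0.2 µg alone, Cxcr4 follows the peptide, and Mthfd1 is high at 0.2 µg of either peptide.

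Only 6 genes were called in opposite directions in the 2 pairs, and they were named after their values were seen. Mthfd1, Slc7a5, C1qbp, Smyd2 and Mif were lower with MCC 2 µg between the ends and higher with MCC 0.2 µg in the middle pair, and Psen2 was the reverse. Mthfd1 stood at 7.99, 8.03 and 8.13 log2 with MCC 0.2 µg and 7.48, 7.42 and 7.32 with 102S 2 µg, so the 0.2 µg groups of both peptides lay above the 2 µg groups. Psen2, a subunit of γ-secretase, stood at 9.41, 9.57 and 9.37 log2 with MCC 2 µg, 8.99 to 9.21 with 102S 2 µg, 8.46, 8.61 and 8.25 with MCC 0.2 µg and 8.41, 8.59 and 8.24 with 102S 0.2 µg. The 2 µg groups of both peptides thus lay above the 0.2 µg groups. The number of such genes was between 0 and 37 over the settings, 0 in the 6 arrays of each pair alone, in the male arrays alone and without MCC 0.2 µg replicate 3, and 29 with the replicate block. The call of Mif between the ends (adjusted p = 0.0499) was lost in 15 settings.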

How the data were processed

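Each of the 12 samples was 1 Affymetrix mouse array. The 3 arrays of MCC 2 µg and of 102S 0.2 µg were compared, and the 3 of MCC 0.2 µg and of 102S 2 µg formed the second pair. Trizol was used for the RNA, of which 100 ng entered a 16 h in vitro transcription, per the labels' protocols. The deposited table of the authors held log2 expression values (1.86 to 14.74). The tool GCOS 1.4 is named, per the submitters' processing notes. For summarising, background correction and scaling no method is given in the sources used here. Array medians differed by at most 0.089 log2, under the limit of 0.15, so the values were used as deposited. No sample column was left unused (0).

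Symbols came from the platform annotation: 20393 of 22690 probe sets had 1 symbol, 691 several and 1606 none. Of the former, 20364 were found in a RefSeq gene table (GRCm38.p6), with 0 symbols changed. The 64 control probe sets and those whose mean lay below the 40th percentile of all means (4.48 log2) were removed, leaving 13556 probe sets, 12423 with 1 symbol. The model was a limma 3.58.1 fit (lmFit, then eBayes; R 4.3.3), with an intensity trend and 4 group means over 12 arrays (8 residual and 4.16 prior degrees of freedom). Tests were 2-sided with Benjamini-Hochberg adjustment over the 13556 probe sets at 0.05. The median standard error of a difference was 0.18 log2, which the number of arrays limits. The ± values of differences are standard errors, and those of levels are SD over 3 arrays.

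The probe set with the highest mean stood for its gene. Named were the 15 highest and 15 lowest called differences without overlap, up to 4 called genes of each list by smallest p, and key genes whatever their result. The groups, lists and rules were chosen with earlier results of these data known. The key genes Cd69 and Tcf7 had no probe set with 1 symbol and were not analysed here. Of 919 called genes with several tested probe sets, 486 had another called the same way. In 14 genes probe sets were called in opposite directions, none of them among the named ones. For Egr2, Bcl6, Il6st, Stat6, Prf1, Trp53inp1, Mybbp1a, Zap70, Cd4, Cd28, Ndufv2 and Ighm no other tested probe set had the same call, so each rests on 1 probe set. The main fit had no block for the replicate number. Deviations from the group means of samples with the same number correlated with r = 0.56, 0.18 and 0.37 between the ends. In the middle pair they correlated with 0.82, 0.39 and 0.58. Samples with unlike numbers gave -0.451 to 0.123 between the ends and -0.693 to 0.434 in the middle pair. Alternatives were the replicate number or the sex type as a block, male arrays alone, no filter or a stricter one (60th percentile), quantile normalization, median centring, the β-actin difference as a covariate, eBayes without trend or robust, the 6 arrays alone, each array left out, the smallest p for choosing probe sets, and, chosen after seeing the data, the omission of the 2 arrays of highest β-actin difference. The fit was tested on simulated data.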

Additional observations from a re-analysis of the deposited data

How the results depend on the processing

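The main count of genes called between the ends, 2195, lay between 1533 (male arrays alone) and 3328 (β-actin covariate) over 12 alternatives, and between 1659 and 2346 over 12 omissions of 1 array. With the β-actin covariate the lower genes numbered 2004, against 1178. With the replicate number as a block 2938 genes were called between the ends. The share of higher genes among the calls was 46.3%, 44.6% after median centring and 47.1% after quantile normalization. Of 146 named genes called, 122 kept their call in every setting that tested them.

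In the middle pair the count moved more. Against 235 genes it was 747 with the replicate block, 584 with the sex type as a block, 770 with the β-actin covariate, 91 in the male arrays alone and 108 in the 6 arrays alone. It was between 70 (without 102S 2 µg replicate 1) and 449 (without MCC 0.2 µg replicate 1) with 1 array left out. It was 71, 89, 123 and 129 without MCC 0.2 µg replicate 2 or 3 and 102S 2 µg replicate 2 or 3. Leaving out the 2 arrays with the highest β-actin gap, an alternative chosen after seeing the data, 2076 and 168 genes were called in the ends and the middle pair. The genes higher in both pairs, 129, were 43 to 288, and those lower in both, 73, were 20 to 314. Among key genes that did not pass, the sign turned for Il2ra in the male arrays alone (-0.155) and with 1 array left out (from -0.041 without MCC 2 µg replicate 1 to 0.301), and for Ccr7 (-0.096) and Gata3 (-0.032) with the β-actin covariate. The causes were not tested. The number of arrays, 3 per group, and the intensity filter limit what these data can separate.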

Other observations

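In the middle pair 27 genes were called that were not called between the ends, 13 higher and 14 lower with MCC 0.2 µg. They were listed after their values were seen, and the calls rest on a comparison whose count moves with the settings. Among them the uracil glycosylase gene Ung, which removes uracil from DNA, stood at 7.33, 7.66 and 7.86 log2 with MCC 0.2 µg and 6.26, 6.15 and 6.39 with 102S 2 µg. With MCC 2 µg Ung stood at 6.59, 6.91 and 6.98, and with 102S 0.2 µg at 6.51, 6.49 and 6.55. MCC 0.2 µg was the highest group for this gene.

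The transferrin receptor gene Tfrc, which brings iron into growing cells, stood at 9.41, 9.14 and 9.31 log2 with MCC 0.2 µg, against 8.28 to 8.65 on the other 9 arrays. The polyamine enzyme gene Odc1 stood at 8.85, 8.85 and 8.86 with MCC 0.2 µg and 8.08, 7.98 and 7.92 with 102S 2 µg. The serine synthesis gene Phgdh, the nucleoside diphosphate kinase genes Nme1 and Nme2 and the growth-related gene Pa2g4 were higher with MCC 0.2 µg by 0.86, 0.51, 0.43 and 0.73 log2. Lower there were Stat4, the transducer of IL-12 signals (-0.74), and S1pr4, a sphingosine phosphate receptor (-0.86).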
